A study of Mus musculus with 35 samples.

Results

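De novo lipogenesis, the making of fatty acids from acetyl-CoA, was followed through 8 transcripts: Acly, Acss2, Acaca, Acacb, Fasn, Me1, Mlxipl and Srebf1. They were picked by gene symbol for their place in the pathway, and all 8 were found among the 55421 genes of the count table. The tissue was interscapular brown adipose tissue (iBAT), the thermogenic fat pad between the shoulder blades, trimmed of the white fat beside it. All 35 animals were male C57BL/6J mice, 9 to 10 weeks old, fed chow, with no genetic change stated, and 1 pad of each mouse gave 1 library.

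Controls (5 mice) stayed in the colony at 24 °C. The 6 other groups, of 5 mice each, were kept in an incubator at 6 °C, for 6 hours in the shortest case and otherwise for 1, 2, 3, 4 or 5 days. Cold mice were also housed singly and without nesting material, so temperature and housing cannot be told apart in a comparison with the controls.

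In the cytosol, ATP citrate lyase cleaves citrate to acetyl-CoA, and acyl-CoA synthetase short chain 2 makes it from acetate. Acetyl-CoA carboxylases turn it into malonyl-CoA, and fatty acid synthase joins these units into palmitate with NADPH from malic enzyme and the pentose phosphate pathway. The pathway is known to be driven by carbohydrate and insulin through ChREBP, encoded by Mlxipl, and SREBP-1, encoded by Srebf1, and in brown fat it runs beside fatty acid oxidation during cold.

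Acly, which opens the route from citrate, lies on chromosome 11 (chr11:100476353-100528000, minus strand, GRCm38). Fasn (chr11:120805846-120824547, minus) and Srebf1 (chr11:60199089-60222581, minus) are on the same chromosome, as is Acaca (chr11:84129672-84401651, plus). Acacb (chr5:114146535-114250761, plus) and Mlxipl (chr5:135089890-135138382, plus) are on chromosome 5, Me1 on chromosome 9 (chr9:86581371-86695953, minus) and Acss2 on chromosome 2 (chr2:155517948-155585724, plus). All are protein-coding. Exons of Acss2, Me1, Mlxipl and Srebf1 overlap annotated genes on the other strand, and Srebf1 also a microRNA gene on its own, but no overlapping gene held more than 82 counts in any library.

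The promoters of 3 of these genes are shown: Fasn and Acly, whose transcripts moved together, and Mlxipl, which encodes a factor that binds E-box-like elements. All 8 genes matched a RefSeq start site (GRCm38.p6), with 12 windows in all, each running from 250 bases before the start to 50 after it. The 4 motifs searched, on both strands, were the E-box CACGTG, the sterol regulatory element core TCACNCCAC, the CCAAT box and the GC box GGGCGG. Capitals mark the matches, on either strand, and in Fasn a pair of CCAAT matches on opposite strands overlap.
Fasn, chr11:120824498-120824797, minus strand: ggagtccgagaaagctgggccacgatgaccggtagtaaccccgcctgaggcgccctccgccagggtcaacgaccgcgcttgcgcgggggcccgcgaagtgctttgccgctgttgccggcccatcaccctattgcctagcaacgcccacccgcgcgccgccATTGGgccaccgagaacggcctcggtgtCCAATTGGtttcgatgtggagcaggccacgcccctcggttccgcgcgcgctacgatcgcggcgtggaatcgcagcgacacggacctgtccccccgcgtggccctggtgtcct
Acly, chr11:100527951-100528250, minus strand: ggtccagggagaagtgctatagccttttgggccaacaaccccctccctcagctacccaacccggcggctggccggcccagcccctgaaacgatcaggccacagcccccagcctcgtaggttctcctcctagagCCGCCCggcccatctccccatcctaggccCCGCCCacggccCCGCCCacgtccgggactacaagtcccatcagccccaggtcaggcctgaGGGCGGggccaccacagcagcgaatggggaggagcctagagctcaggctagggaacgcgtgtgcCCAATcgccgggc
Mlxipl, chr5:135089640-135089939, plus strand: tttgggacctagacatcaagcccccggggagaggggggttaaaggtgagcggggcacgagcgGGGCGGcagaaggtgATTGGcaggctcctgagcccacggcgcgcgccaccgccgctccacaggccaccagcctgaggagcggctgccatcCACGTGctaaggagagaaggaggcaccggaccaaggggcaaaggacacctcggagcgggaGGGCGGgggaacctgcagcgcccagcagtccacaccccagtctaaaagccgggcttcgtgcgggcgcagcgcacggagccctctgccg

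Fasn had 3 CCAAT matches in this window, and Acly 1 CCAAT and 4 GGGCGG matches. The window of Acaca, whose transcript moved with both, held no match to any of the motifs. The Mlxipl window held 1 CACGTG match, and the window at its other start (chr5:135106641-135106940) held the single TCACNCCAC match of the 12. Among all 32851 RefSeq windows, 7.15% held CACGTG, 1.24% TCACNCCAC, 37.4% CCAAT and 35.7% GGGCGG. A match is only a run of letters, and its absence from a window says nothing about the factor. Me1, Mlxipl and Srebf1 had more than 1 start site among the 12 windows. The windows of Acaca and Acacb lie well inside the annotated gene spans, so starts further upstream are not covered. Counts from the 3′ end add all transcripts of a gene together.

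Expression was measured by QuantSeq, which reads the 3′ end of polyadenylated RNA, so that counts do not scale with transcript length. Libraries held 3846016 to 6047247 counts, of which 33.6% to 46.2% were mitochondrial, and 1 read stood for 0.165 to 0.260 counts per 1000000 (CPM). CPM were scaled by the trimmed mean of M-values (TMM). The summed level of 9 brown adipocyte markers was 9432 to 16039 CPM. Markers of luminal epithelium, a source of lipogenic transcripts in mammary tissue, summed to at most 0.579 CPM, with Krt8 and Cldn4 at 0 in every mouse, and those of lymphocytes to at most 4.40 CPM. In whole tissue, fewer cells of a type and less RNA per cell cannot be told apart.

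After 6 hours at 6 °C, 6 of the 8 transcripts were lower than in the controls and none was higher. Srebf1 fell to 0.287 of its control level, Acly to 0.310, Fasn to 0.395, Acaca to 0.487 and Acss2 to 0.549, while Me1 stood at 1.00-fold of it. By 5 days 6 were higher: Acly stood at 4.30-fold, Me1 at 3.62-fold, Fasn at 2.56-fold, Acss2 at 1.97-fold, Acacb at 1.78-fold and Acaca at 1.66-fold of the control level. Srebf1 alone was called lower, at 0.648. Each group was compared with the same 5 control mice by edgeR's quasi-likelihood test with Benjamini-Hochberg adjustment over all genes tested, and a call means an adjusted p under 0.05.

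**Figure D1:**
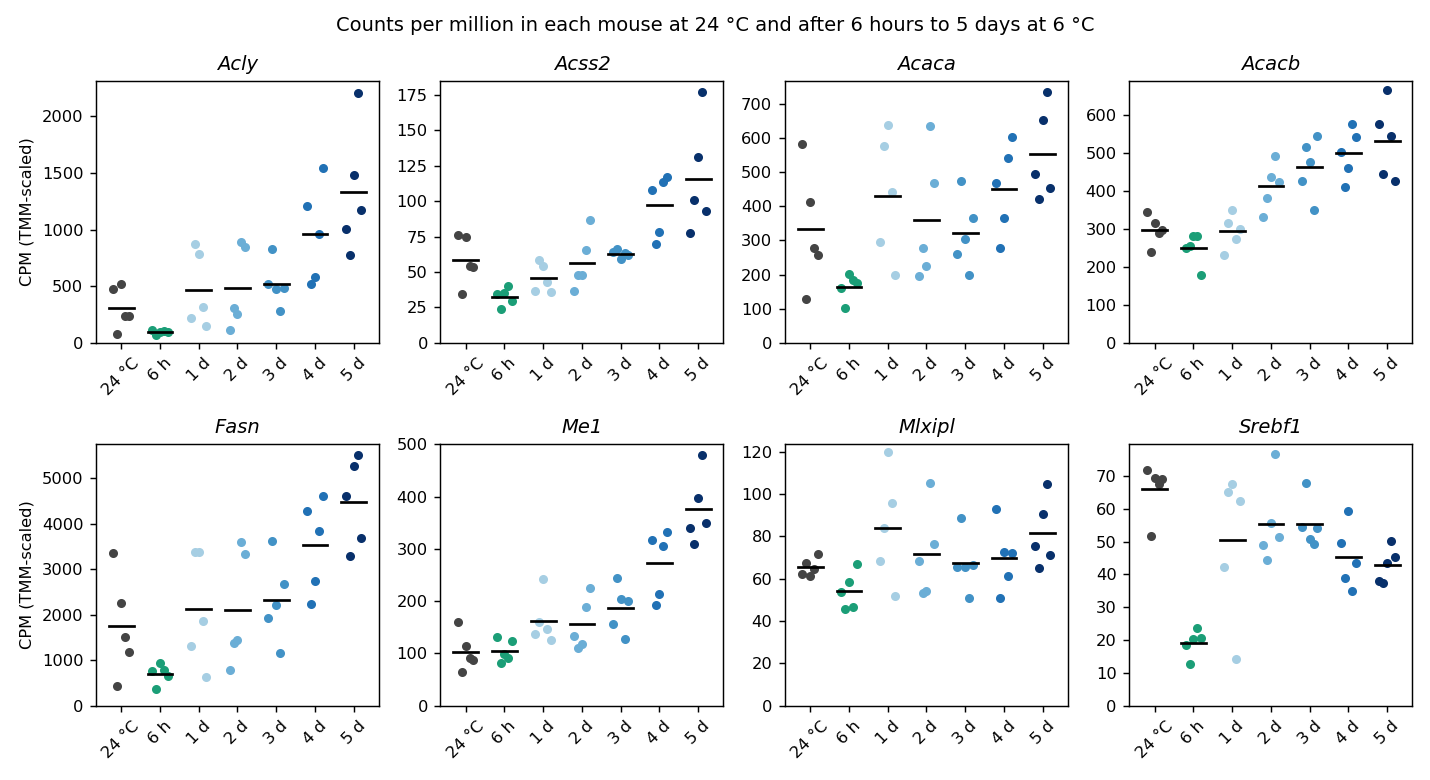
TMM-scaled CPM of each gene (vertical axes, from 0) in each mouse (points) of the 7 groups (horizontal axes), with the group mean as a bar. Acly, Fasn, Me1, Acss2, Acaca and Acacb have their highest mean after 5 days, and Srebf1 is lowest after 6 hours, at 12.7 to 23.6 CPM.

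The background was broad. After 6 hours, 21.6% of 10593 genes tested were called higher and 21.0% lower, against 0 and 6 of the 8 transcripts. After 1 day the shares were 18.9% and 17.8%, against 1 and 0. They were 16.4% and 14.7% after 2 days (1 and 0 of 8), 18.3% and 15.5% after 3 days (2 and 0), 20.0% and 18.0% after 4 days (5 and 1) and 20.2% and 18.6% after 5 days (6 and 1). With library sizes in place of TMM, 1357 genes were called higher and 3360 lower after 6 hours, against 2283 and 2225, and 1213 higher and 3329 lower after 5 days, against 2167 and 1998. The median log2 change of the 8 was -0.95 after 6 hours, with -0.03 over all genes tested, and 0.91 after 5 days, with -0.02 over all.

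Acly, the enzyme that frees acetyl-CoA from citrate, had 475, 74.4, 518, 238 and 236 CPM in control mice 1 to 5. After 6 hours the 5 mice had 118, 66.7, 98.6, 108 and 93.3 CPM. Control 2 fell among the cold mice, while the 4 other controls were above all of them. The log2 change was -1.69 ± 0.34 (SE, n = 5 and 5; edgeR quasi-likelihood test, Benjamini-Hochberg adjusted p = 0.000625).

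After 5 days Acly reached 1009, 773, 1483, 2205 and 1172 CPM, above every control. Its log2 change was 2.11 ± 0.37 (adjusted p = 0.000209, edgeR), after 1.66 ± 0.39 at 4 days, when the 5 mice were again above every control (adjusted p = 0.00295). The days between were spread widely, from 149 to 876 CPM at 1 day and from 112 to 888 CPM at 2 days, and neither passed the test. At 1 day, 2 mice (876 and 785 CPM) stood above all controls, and at 2 days again 2 (888 and 847 CPM).

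Acss2, which makes acetyl-CoA from acetate, had 76.4, 34.4, 74.6, 54.3 and 53.7 CPM in the controls. It had 34.6, 24.2, 35.5, 39.8 and 29.3 CPM after 6 hours, 3 of the 5 between the lowest control and the next (log2 change -0.86 ± 0.18, adjusted p = 0.00106, edgeR). Unlike Acly, its mean stayed below that of the controls at 1 day (45.8 ± 10.1 CPM, SD, n = 5, against 58.7 ± 17.4), with no call. It was higher after 4 days (log2 change 0.74 ± 0.19, adjusted p = 0.00540) and 5 days (0.98 ± 0.21, adjusted p = 0.00134), when the 5 mice, at 77.5 to 177 CPM, lay above every control.

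Since both enzymes give the same product, their balance was followed within each mouse. The ratio of Acly to Acss2 CPM had a median of 4.40 in controls (2.16 to 6.94), 2.77 after 6 hours (2.70 to 3.40) and 12.4 after 5 days (7.65 to 13.0). Every 5-day mouse thus had a higher ratio than any control. This is a ratio of 3′ counts and not of protein or flux.

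Acaca encodes the cytosolic acetyl-CoA carboxylase that feeds fatty acid synthase. Control mice 1 to 5 had 583, 129, 412, 277 and 258 CPM, and after 6 hours the range was 101 to 201 CPM. All cold values but 1 lay between the 2 lowest controls, and the log2 change was -1.04 ± 0.27 (adjusted p = 0.00553, edgeR). Acaca then overlapped the controls at every later time, at 200 to 638 CPM after 1 day and 422 to 735 CPM after 5 days.

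The 5-day call for Acaca was slender, at a log2 change of 0.73 ± 0.27 (adjusted p = 0.0375, edgeR). It was lost with DESeq2 (adjusted p = 0.129), with library sizes in place of TMM (log2 change 0.49, adjusted p = 0.133), with all groups in a single fit (adjusted p = 0.0647), and without any 1 of 5 mice (controls 2, 4 and 5, and 5-day mice 3 and 4). At 2 and 3 days its changes were 0.11 and -0.04, and the sign at 2 days turned with library sizes only (-0.16).

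Acacb encodes the carboxylase at the mitochondrial surface, whose malonyl-CoA is known to restrain fatty acid entry. Acacb was called at partly other times than Acaca, but the genes were not tested against each other. Controls had 345, 240, 316, 289 and 297 CPM, and after 6 hours and 1 day its ranges, 179 to 282 and 232 to 349 CPM, overlapped them with no call (log2 changes -0.27 ± 0.12 and -0.02 ± 0.12). It was higher from 2 days on: 0.47 ± 0.13 after 2 days (adjusted p = 0.0105, edgeR), 0.65 ± 0.13 after 3, 0.76 ± 0.12 after 4 and 0.83 ± 0.13 after 5 days (adjusted p = 5.73e-05).

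From 3 days on all Acacb values, 351 to 666 CPM, were above the highest control. The 2-day call was lost with library sizes only (log2 change 0.23, adjusted p = 0.114). The ratio of Acacb to Acaca was 1.04 in controls at the median (0.591 to 1.85), 1.54 after 6 hours and 0.621 at 1 day. It was 1.57 at 3 days and 1.02 at 5 days (0.743 to 1.16), with ranges that overlapped the controls throughout.

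Fasn, the synthase itself, had the highest 3′ counts of the 8 and varied most among controls. Control mice had 3346, 429, 2260, 1504 and 1175 CPM, a 7.80-fold span. After 6 hours the values were 755, 362, 943, 785 and 646 CPM. Control 2 lay among the cold mice, and the 4 other controls were above all of them.

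The Fasn log2 change after 6 hours was -1.34 ± 0.36 (adjusted p = 0.00587, edgeR). After 1, 2 and 3 days it was 0.28 ± 0.45, 0.27 ± 0.45 and 0.42 ± 0.38, with no call. Mice of 1 duration spanned 636 to 3382 CPM at 1 day and 788 to 3606 CPM at 2 days, and the 2-day value lost its sign with library sizes only (-0.01). After 5 days the values were 4597, 3278, 5268, 5497 and 3684 CPM, 4 of 5 above the highest control, for a log2 change of 1.35 ± 0.34 (adjusted p = 0.00406).

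After 4 days, 3 of 5 mice were above the highest control in Fasn (log2 change 1.03 ± 0.36, adjusted p = 0.0317, edgeR). That call was lost with DESeq2 (adjusted p = 0.0743), with library sizes only (0.0545) and without any 1 of 5 mice (controls 4 and 5, and 4-day mice 1, 4 and 5). The coefficient of variation of Fasn among mice was 63.8% in controls, 31.0% after 6 hours, 58.5% at 1 day and 60.1% at 2 days. It was then 39.5% at 3 days, 28.8% at 4 and 21.7% at 5. These differences in spread were not tested.

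Me1, the cytosolic malic enzyme that supplies NADPH, showed no call at 6 hours. Controls had 159, 64.8, 114, 91.9 and 87.3 CPM, and 6-hour mice 132, 80.8, 98.8, 91.0 and 124 CPM. The groups overlapped fully, with a log2 change of 0.01 ± 0.19 that was -0.17 with library sizes only.

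Me1 was also the first enzyme to be called higher. After 1 day it had 136, 160, 242, 148 and 125 CPM, of which 2 were above every control (log2 change 0.65 ± 0.21, adjusted p = 0.0232, edgeR). This call was lost with library sizes only (0.42) and without any 1 of controls 2, 4 and 5 or 1-day mouse 3. The change was 0.58 ± 0.23 after 2 days, with no call (adjusted p = 0.0633), 0.86 ± 0.20 after 3 days (adjusted p = 0.00410), 1.41 ± 0.20 after 4 (adjusted p = 4.52e-05) and 1.86 ± 0.18 after 5 days (adjusted p = 5.20e-07). The 5-day mice, at 340, 310, 398, 480 and 349 CPM, were all above the highest control, and the 4-day mice, at 193 to 332 CPM, above it as well.

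**Figure D2:**
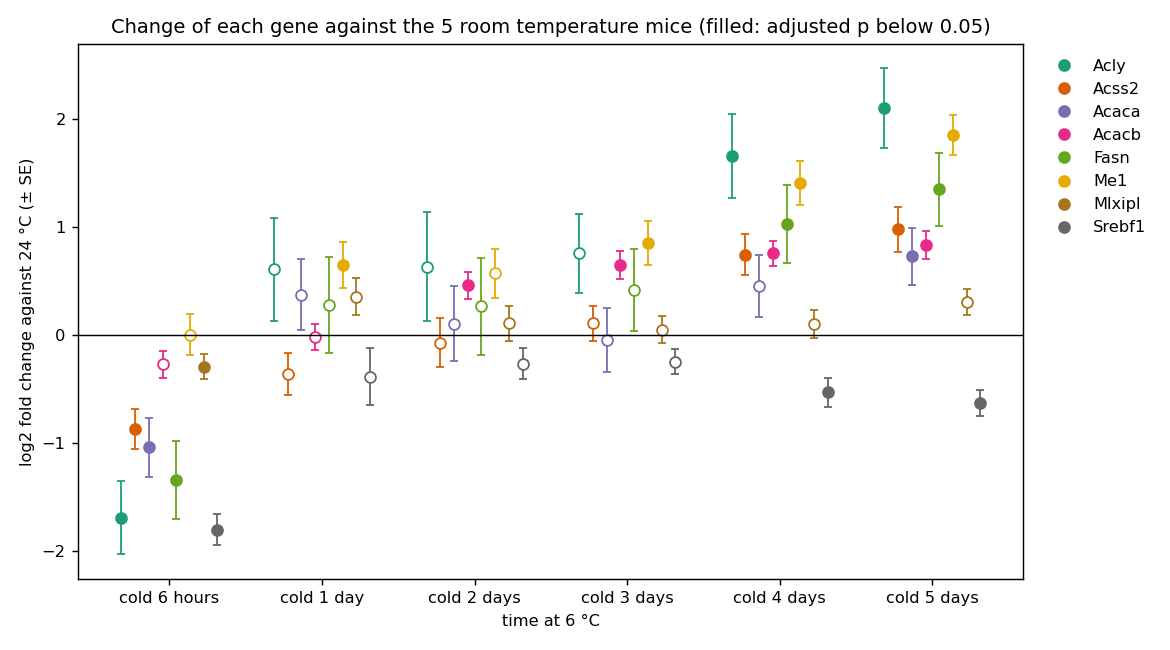
Log2 fold change of each gene against the 5 controls (vertical axis, bars ± SE) by time at 6 °C (horizontal axis). Filled points have an adjusted p under 0.05 by edgeR: 6 are filled below 0 at 6 hours, and at 5 days 6 are filled above 0 and Srebf1 below it.

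Mlxipl, which encodes the glucose-responsive factor ChREBP, had the smallest change of the 8 after 5 days. Controls were tightly grouped at 62.3, 67.6, 61.1, 64.5 and 71.9 CPM. After 6 hours the values were 53.9, 45.5, 58.6, 46.4 and 67.0 CPM, 4 of 5 below every control. The log2 change was -0.29 ± 0.11 (adjusted p = 0.0462, edgeR), a call that was lost in 12 of 17 alternative fits, with DESeq2 (adjusted p = 0.0841) and with all groups in a single fit (0.268) among them.

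At 1 day Mlxipl ranged from 51.9 to 120 CPM, and at 5 days from 65.1 to 105 CPM, with 3 and 3 mice above every control. The changes, 0.36 ± 0.17 and 0.31 ± 0.12, did not pass the test (adjusted p = 0.113 and 0.0560, edgeR). Those at 2, 3 and 4 days were 0.11, 0.05 and 0.10 and changed sign with library sizes only.

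Srebf1, which encodes SREBP-1, the insulin-responsive activator of the lipogenic enzymes, showed another course. Controls had 71.8, 51.6, 69.4, 67.6 and 69.1 CPM. After 6 hours the values were 18.6, 12.7, 20.3, 23.6 and 20.6 CPM, all below every control. The log2 change of -1.80 ± 0.14 (adjusted p = 2.88e-08, edgeR) was the lowest of the 8, and it kept its call in all 17 alternative fits.

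After 1 day Srebf1 had 42.4, 65.3, 67.6, 14.3 and 62.4 CPM: mouse 4 was within the 6-hour range, and 3 of the others within that of the controls (log2 change -0.38 ± 0.27, no call). Mouse 4 did not have low Fasn, at 1850 CPM, or low Mlxipl, at 95.6 CPM. After 4 days the range was 35.0 to 59.4 CPM (log2 change -0.53 ± 0.14, adjusted p = 0.00584, edgeR). After 5 days the values were 38.0, 37.3, 43.5, 50.1 and 45.2 CPM, all below every control (-0.63 ± 0.12, adjusted p = 0.000432).

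The proportions of the regulators and the synthase were followed within each mouse. Srebf1 is the denominator of both ratios, so its lower level enters each. The ratio of Fasn to Srebf1 CPM was 22.3 at the median in controls (8.31 to 46.6). It was 33.3 after 6 hours (28.5 to 46.4, within the control range) and 110 after 5 days. Its lowest 5-day value, 81.5, was above the highest control. Mlxipl to Srebf1 was 0.954 in controls (0.868 to 1.31), 2.90 after 6 hours (1.97 to 3.58) and 1.99 after 5 days (1.57 to 2.09). Both later ranges lay above the controls.

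The return from the 6-hour level was tested without the controls. From 6 hours to 1 day, 7 of the 8 transcripts rose and none fell, where 9.20% of 10181 genes were called higher and 7.75% lower. The log2 change was 2.29 ± 0.37 for Acly (adjusted p = 0.000348, edgeR), 1.61 ± 0.34 for Fasn, 1.41 ± 0.28 for Srebf1 and 1.40 ± 0.25 for Acaca. Me1 (0.63 ± 0.17), Mlxipl (0.64 ± 0.18) and Acss2 (0.50 ± 0.16, adjusted p = 0.0391) rose less, and Acacb, at 0.24 ± 0.13, did not pass the test. Of the 8, only Acly had every 1-day mouse above every 6-hour mouse, as did 5.92% of all genes tested. Without 6-hour mouse 2, the lowest of its group in 7 of the 8, the count fell to 4.

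Between 6 hours and 5 days all 8 rose, where 19.0% of 10294 genes were called higher and 16.9% lower. The log2 change was 3.79 ± 0.22 for Acly, 13.9-fold, and 2.69 ± 0.20 for Fasn, 6.47-fold. For Me1, Acss2 and Acaca it was 1.85 ± 0.14, 1.84 ± 0.18 and 1.77 ± 0.17. Acacb rose by 1.11 ± 0.13, Srebf1 by 1.18 ± 0.15 and Mlxipl by 0.60 ± 0.14 (adjusted p = 0.00165, edgeR, the highest of the 8). Every 5-day mouse was above every 6-hour mouse for 7 of the 8, the exception being Mlxipl, as was the case for 11.8% of all genes tested.

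Within the cold mice of 1 to 5 days, the fitted linear slope on days was called above 0 for 5 of the 8 transcripts and below 0 for none, where 10.7% of 11675 genes were called rising and 10.5% falling. The slope per day on the log2 scale was 0.40 ± 0.10 for Acly (n = 25 mice, adjusted p = 0.00399, edgeR), 0.35 ± 0.05 for Acss2, 0.32 ± 0.05 for Me1, 0.29 ± 0.08 for Fasn and 0.20 ± 0.03 for Acacb. It was 0.10 ± 0.07 for Acaca and -0.01 ± 0.04 for Mlxipl, with no call. For Srebf1 it was -0.08 ± 0.05 (adjusted p = 0.321), and -0.12 (adjusted p = 0.0150) once 1-day mouse 4 was left out.

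Mice of 1 duration differed widely from each other in Fasn and Acly, and it was asked whether the 8 transcripts varied together among them. Log2 CPM less the mean of its duration was correlated over the 35 mice for the 28 pairs, with 100000 permutations of mice within durations. By Pearson's r, 20 pairs passed an adjusted p of 0.05. Fasn and Acaca had r = 0.97 (Spearman's rho 0.97), Fasn and Acly r = 0.94 (rho 0.95), and Acly and Acaca r = 0.93 (rho 0.93), each with a permutation p of 1e-05, the smallest they can give. Leaving out, for each pair, the 2 most extreme mice in the first gene gave 0.96, 0.93 and 0.92.

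Fasn also varied with Me1 (r = 0.83, rho 0.86), Acss2 (r = 0.81, rho 0.85), Acacb (r = 0.65, rho 0.75) and Mlxipl (r = 0.59, rho 0.61, adjusted permutation p = 0.000787). With Srebf1 it did so by rank (rho = 0.51, adjusted permutation p = 0.00637) but not by value (r = 0.31, permutation p = 0.184, adjusted p = 0.191). Without the 2 mice most extreme in Fasn, r was 0.42. That rule looked at Fasn only, so a mouse extreme in Srebf1, such as 1-day mouse 4, could stay in. No pair with Srebf1 passed by r, the highest being 0.36 with Acly (adjusted permutation p = 0.114), whereas 6 of its 7 passed by rho. All genes of a mouse share its library, depth and scaling.

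**Figure D3:**
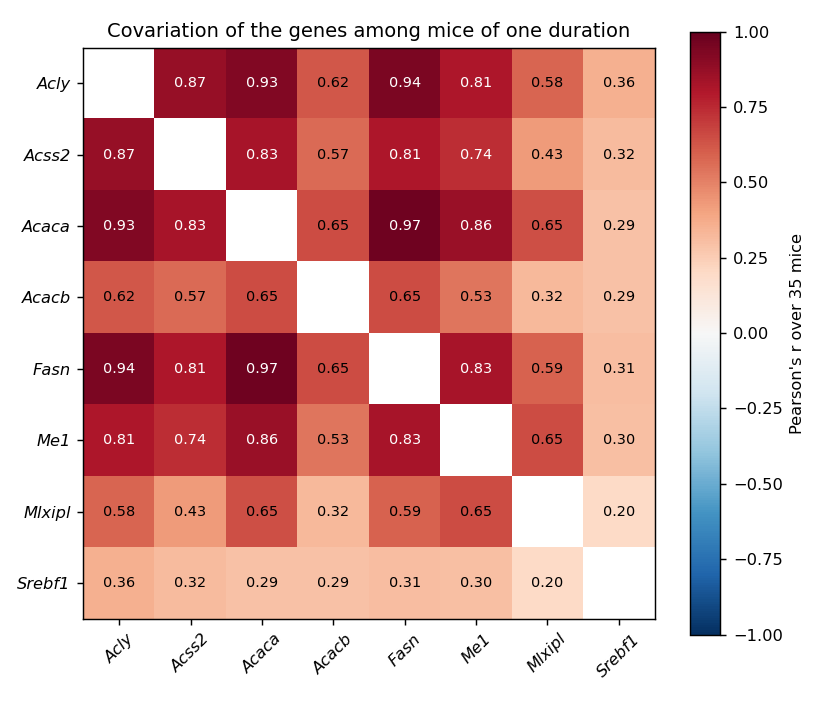
Pearson's r of log2 CPM less the mean of each duration, over 35 mice, for each pair of genes (rows and columns, colour from -1 to 1). Fasn, Acly and Acaca form a block of r from 0.93 to 0.97, and Srebf1 has r from 0.20 to 0.36 with the others.

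Among 6171 other genes with a mean of at least 50 counts, ranked by the same within-duration r with Fasn, Acaca took rank 1, Acly 3, Me1 22, Acss2 26, Acacb 111, Mlxipl 195 and Srebf1 1206. The median r over all of them was 0.05, and 5.90% exceeded 0.5. Pygl, encoding a glycogen phosphorylase, took rank 2 (r = 0.95) and Slc25a1, the mitochondrial citrate carrier, rank 5 (0.90). Both were named after their values were seen. The ranks are descriptive.

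**Figure D4:**
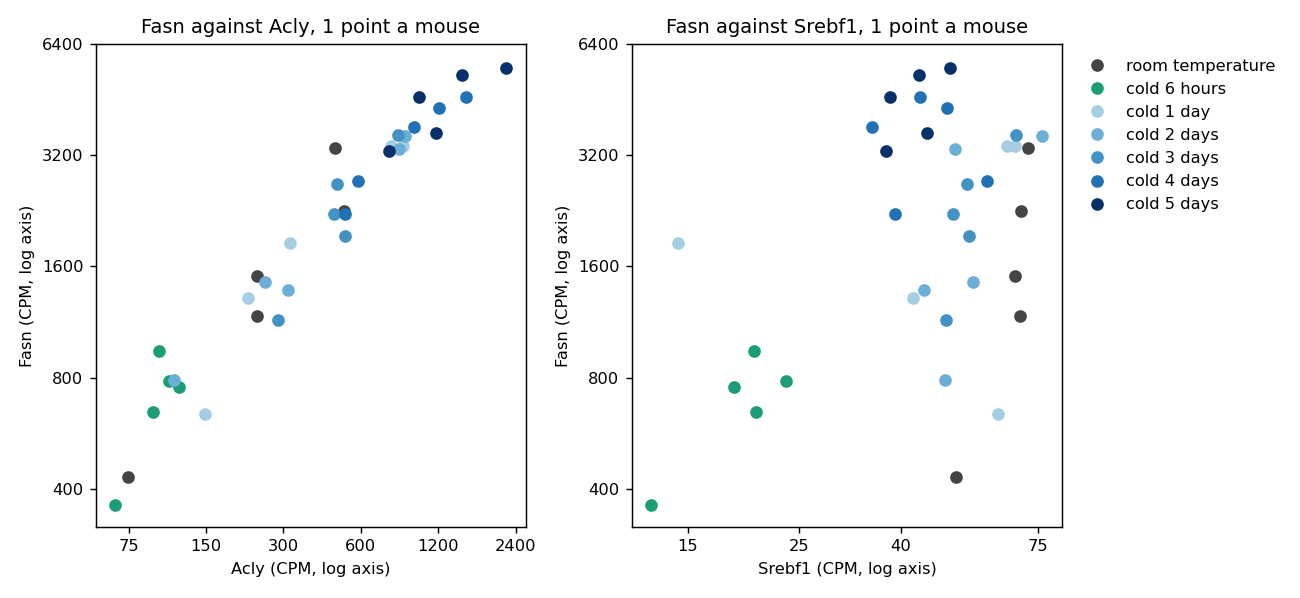
Fasn against Acly (left) and Srebf1 (right), in TMM-scaled CPM on log axes, 1 point for each of 35 mice, coloured by group. Fasn and Acly lie along a single band from 362 to 5497 CPM of Fasn, while the 5-day mice combine Fasn of 3278 to 5497 CPM with Srebf1 of 37.3 to 50.1 CPM, below the controls at 51.6 to 71.8 CPM.

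Over all 35 mice, durations included, the 5 non-member genes most like Fasn included Pygl (r = 0.95), Tkt (0.95), Ank (0.94) and Ttc25 (0.92), among 6172 genes. For Mlxipl they included Phlda3 (0.75), Slc25a48 (0.73), Derl1 (0.71) and Eif4e3 (0.71). For Srebf1 they were Cspg4 (0.82), Add3 (0.79), Idh1 (0.78), Tbc1d32 (0.78) and Gnptab (0.78). Pygl, for example, averaged 264 ± 95.5 CPM (SD, n = 5) in controls, 130 ± 29.5 after 6 hours and 492 ± 77.1 after 5 days.

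Around the 8 transcripts, 99 genes in 10 lists of the same pathway and its inputs were followed. The list counts are to be read beside the shares over all genes tested. These were 21.6% higher and 21.0% lower after 6 hours, and 20.2% and 18.6% after 5 days. Some list counts lay near these shares, and no list was tested as a set. Of the enzymes and carriers that supply acetyl-CoA and citrate, 2 of 10 tested were higher and 2 lower after 6 hours, and 8 higher and 1 lower after 5 days. Aacs, which activates acetoacetate in the cytosol, fell at 6 hours from 42.3 ± 6.34 to 12.1 ± 4.29 CPM (log2 change -1.83, adjusted p = 4.59e-07, edgeR) and was higher at 5 days (1.02, adjusted p = 5.00e-05). Mpc2, a subunit of the mitochondrial pyruvate carrier, was higher at both times (0.57 and 1.62), and Pdhb, of pyruvate dehydrogenase, at 5 days (1.00).

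Among the other genes for cytosolic NADPH, 1 of 8 was higher and 4 lower after 6 hours, and 4 higher and 1 lower after 5 days. Idh1, cytosolic isocitrate dehydrogenase, fell from 177 ± 16.5 to 78.6 ± 12.9 CPM at 6 hours (log2 change -1.19, adjusted p = 2.44e-07, edgeR). Pgd and G6pdx, dehydrogenases of the pentose phosphate pathway, rose at 5 days by 1.81 and 1.67, and G6pdx was already higher at 6 hours (0.50, adjusted p = 0.0132), though not with library sizes only.

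Of 12 tested genes around the carboxylases, 1 was higher and 4 lower after 6 hours, and 7 higher and 2 lower after 5 days. Thrsp, whose protein is known as Spot 14 and follows lipogenesis in many tissues, fell at 6 hours from 1094 ± 331 to 366 ± 86.3 CPM (log2 change -1.60, adjusted p = 3.37e-06, edgeR). Mlycd, malonyl-CoA decarboxylase, rose at 5 days from 45.7 ± 8.51 to 121 ± 7.59 CPM (1.40, adjusted p = 9.34e-08). Prkag2, a regulatory subunit of AMP-activated kinase, was lower at both times (-1.43 and -1.41).

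In the list for SREBP processing and LXR, 3 of 8 were higher and 2 lower after 6 hours, and 3 higher and 0 lower after 5 days. Insig1, which retains SREBP precursors in the endoplasmic reticulum and is itself a known SREBP target, rose at 5 days from 38.2 ± 8.37 to 162 ± 57.4 CPM (log2 change 2.08, adjusted p = 3.01e-07, edgeR). Srebf2, the sterol-responsive homologue of Srebf1, was higher at 6 hours (0.73) and 5 days (1.10). Its direction was thus opposite to that of Srebf1 at both times.

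Among partners of ChREBP and genes for glucose entry, 7 of 11 were higher and 1 lower after 6 hours, and 7 higher and 0 lower after 5 days. Mlx, the dimer partner of ChREBP, rose at 6 hours from 26.1 ± 6.86 to 54.3 ± 4.84 CPM (log2 change 1.04, adjusted p = 2.05e-05, edgeR), and Hk2, hexokinase 2, from 210 ± 40.4 to 618 ± 63.6 CPM (1.54). Gpi1, Pfkl and Pkm, of glycolysis, were higher at 5 days by 1.44, 1.45 and 1.07. In insulin and mTOR signalling, 4 of 11 were higher and 2 lower at 6 hours, and 2 higher and 5 lower at 5 days. Irs2 rose at 6 hours (2.15), while Pik3r1 was lower at both times (-1.59 and -1.77).

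Downstream of palmitate, 5 of 12 genes for elongation and desaturation were higher and 1 lower after 6 hours, and 7 higher and 0 lower after 5 days. Elovl6, which elongates palmitate, rose at 6 hours from 174 ± 57.3 to 406 ± 57.5 CPM (log2 change 1.20, adjusted p = 2.02e-05, edgeR), when Fasn and Acly were low, and Elovl3 rose by 4.62 at 6 hours and 6.55 at 5 days. For triglyceride assembly the counts were 3 higher and 1 lower of 7, then 4 and 2 of 8. Dgat1 rose at 6 hours (1.53) and Dgat2 fell (-0.90), both enzymes of the last step. Agpat2 rose at 5 days (1.71).

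Sterol synthesis and uptake had 3 higher and 1 lower of 6 tested after 6 hours and 5 higher and 1 lower of 7 after 5 days. Mitochondrial fatty acid synthesis had 1 higher and 3 lower of 6 after 6 hours and 4 higher and 0 lower after 5 days, with Cbr4 at -0.66 and then 0.48. No named gene of these lists changed direction under 3 other scalings or tools, chosen after seeing the data, and 8 of 177 such values missed the threshold. The genes were named for their small adjusted p on the same counts, so this does not speak for the list counts. With library sizes only, the list medians for SREBP processing and LXR turned from 0.10 to -0.09 at 6 hours and from 0.20 to -0.03 at 5 days.

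**Figure D5:**
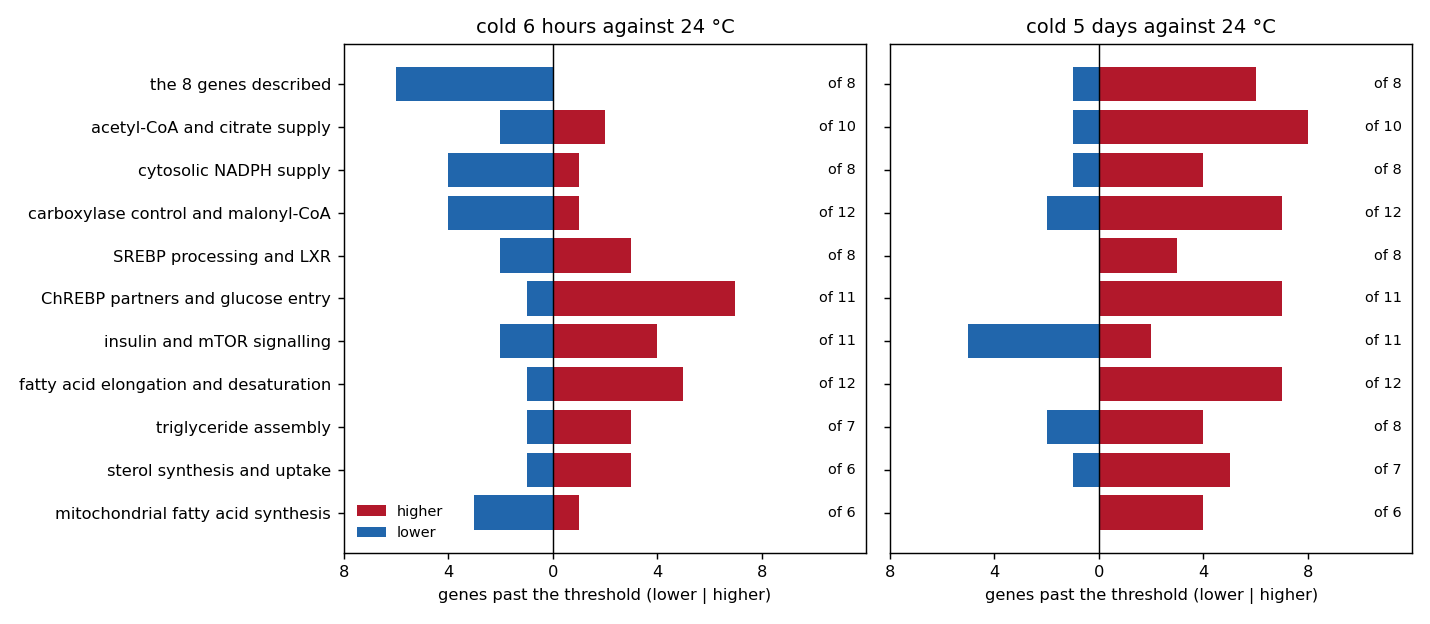
Number of genes called higher (red, right) and lower (blue, left) against the controls in each list (rows) after 6 hours and 5 days, with the number tested at the right edge. The 8 described genes have 6 lower at 6 hours, and 6 higher and 1 lower at 5 days. Over all genes tested, 21.6% were higher and 21.0% lower at 6 hours, and 20.2% and 18.6% at 5 days.

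Single brown adipocyte markers moved in both directions. After 5 days Adipoq (log2 change -1.12), Ebf2 (-0.71) and Prdm16 (-0.66) were called lower than in controls, and Cox7a1 (0.91) and Plin1 (0.31) higher. Cidea, Cox8b, Pparg and Fabp4 had no call then. Some markers of other cells also moved with the groups. The 4 markers of white adipose depots, leptin included, summed to 11.1 to 30.5 CPM in controls and 4.58 to 13.4 CPM in the cold, where both tested were lower at 6 hours. Endothelial markers summed to 239 to 298 CPM in controls, 414 to 499 after 6 hours and 483 to 573 after 1 day, and macrophage markers to at most 104 in controls and 215 after 3 days. Erythroid markers summed to 1821 to 2337 CPM in controls and 2693 to 4978 CPM after 5 days, with no overlap, and 3 of 5 were called higher then: Hbb-bs (1.08), Hbb-bt (1.20) and Alas2 (0.57). Skeletal muscle markers ran from 2.31 to 918 CPM across mice, and 3 of 5 were called lower after 5 days: Acta1 (-1.36), Tnnt3 (-1.32) and Myh4 (-1.15). Schwann cell markers were at 242 to 425 CPM after 3 days, above all controls at 141 to 206 CPM. Their part in the changes of the 8 transcripts was not tested.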

How the data were processed

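Total RNA of 1 iBAT pad from each of 35 mice was made into QuantSeq 3′ libraries. Per the submitters' processing notes, reads were aligned to GRCm38 with STAR 2.6.1d and counted with HTSeq 0.11.2; the strand setting is not given in the sources used here. The deposited values are raw counts per gene, made by the authors with no normalization.

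Here 267 of 55421 identifiers had no symbol. Library sizes kept all counts. Each comparison held its own groups: genes passing filterByExpr, TMM factors, and edgeR's (4.0.16) quasi-likelihood test in R 4.3.3, adjusted by Benjamini-Hochberg over all genes tested at 0.05, with SE as the absolute log2 change divided by the square root of F. The slope over 1 to 5 days used day as a number. All 8 transcripts passed the filter in every comparison. CPM used TMM over 35 libraries, and log2 CPM a prior count of 2. Fits and permutations were tested on simulated data. The simulated counts for the fits gave every gene the same spread, smaller than that of Fasn, Acly and Acaca among controls. They therefore do not cover genes that vary this widely. No 2 libraries of the same group were alike within sampling noise, and libraries of different groups were not compared in this way. Replicates are separate mice. The precision of a single library is limited by counting error.

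Alternatives were DESeq2 1.42.0, RLE factors, library sizes only, no filter, mitochondrial genes and Gm42418 left out, a single fit of 7 groups, a replicate block and each mouse left out. Named genes were the 8 transcripts, of each list at most 3 with the smallest adjusted p at 6 hours and 3 at 5 days (mean of at least 50 counts), and the 5 most like Fasn, Mlxipl and Srebf1. The transcripts and lists were chosen with earlier results of these data known. Fasn is also among genes the study picked on these libraries, in a cluster it describes as rising after 1 to 2 days of cold and staying high. Here Fasn was called higher than in controls only after 4 and 5 days. The study describes a cluster of genes and gives no test of Fasn alone at each time. One listed gene had no match in the table. Some genes that these rules name are not reported here.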

Additional observations from a re-analysis of the deposited data

Results flagged for a closer look

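For all 8 transcripts the change from the controls after 5 days differed from that after 6 hours, by edgeR's quasi-likelihood test between both cold groups. The difference (5 days less 6 hours, log2) was 2.69 for Fasn, 3.79 for Acly, 1.77 for Acaca, 1.11 for Acacb, 1.85 for Me1, 1.84 for Acss2, 0.60 for Mlxipl and 1.18 for Srebf1. In Fasn, Acly, Acaca and Acss2 the 2 changes had opposite signs and both were called, and in Srebf1 both were below 0.

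In 2 groups 1 mouse stood apart from the others in Srebf1 by Dixon's test. Control mouse 2 was lowest, at 51.6 CPM against 67.6 to 71.8 CPM in the other controls, and mouse 2 of the 3-day group was highest, at 68.0 CPM against 49.3 to 54.6 CPM. Chance flags about 1 in 20 groups, and 56 groups were looked at.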

How the results depend on the processing

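Of the log2 changes of the 8 transcripts, 459 of 496 values under other tools, scalings, filters or samples kept their direction and side of the threshold, as did 768 of 840 with 1 mouse left out. The calls between 6 hours and 5 days held for all 8 in all 17 alternatives. With library sizes only, the median of all genes moved from -0.03 to -0.21 at 6 hours, and these changes turned: Me1 at 6 hours (-0.17), Fasn (-0.014), Acaca (-0.16) and Mlxipl (-0.13) at 2 days, Acss2 (-0.025) and Mlxipl (-0.095) at 3 days and Mlxipl at 4 days (-0.046). Acacb at 1 day was 0.0059 with DESeq2 and 0.0039 without the filter. Without the filter 4 transcripts were called at 1 day, 3 at 2 days and 4 at 3 days, and 2 at 2 days with 7 groups in a single fit; the cause was not tested. With 1 mouse left out, 0 to 2 were called at 1 day (none without controls 4 or 5 or 1-day mouse 3, 2 without 1-day mouse 5), 1 to 2 at 2 days (2 without control 1 or 2-day mice 2 or 4) and 4 to 7 between 6 hours and 1 day (4 without 6-hour mouse 2). Changes that turned then had these ranges: Me1 at 6 hours -0.12 to 0.22, Acacb at 1 day -0.085 to 0.067, at 2 days Fasn -0.0059 to 0.63, Acaca -0.19 to 0.39, Acss2 -0.26 to 0.051 and Mlxipl -0.062 to 0.20, at 3 days Acaca -0.25 to 0.26, Acss2 -0.033 to 0.22 and Mlxipl -0.063 to 0.14, Mlxipl at 4 days -0.028 to 0.21, and the Mlxipl slope -0.039 to 0.026. None of these changes was called. Replicate numbers did not pair the mice: of 30 cold mice, 2 had r over 0.1 with the control of the same number (range -0.19 to 0.13), and 4 correlated best with that control. With the replicate block, Acss2 from 6 hours to 1 day lost its call (0.49, adjusted p = 0.0683, edgeR), Acaca at 3 days was 0.037, no other call of the 8 changed, and 2253 genes were called higher and 2238 lower at 6 hours. Between 17 and 21 of the 28 pairs passed under other scalings or without 1 group. Counting error limits what a single library shows.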

Other observations

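Control mouse 2 was the lowest control for 7 of the 8 transcripts, Mlxipl being the exception. Its Fasn was 0.228 of the median of the 4 other controls, Acly 0.209, Acaca 0.376, Acss2 0.533, Me1 0.630, Srebf1 0.745 and Acacb 0.782, against 1.07 for Mlxipl. Control mouse 1 was the highest control in Fasn, Acaca, Acacb, Me1, Acss2 and Srebf1. The span from the lowest to the highest control was 7.80-fold for Fasn, 6.97-fold for Acly and 4.50-fold for Acaca, but 1.39-fold for Srebf1 and 1.18-fold for Mlxipl.

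Acss2 was closest among mice after 3 days, at 59.3 to 65.9 CPM (coefficient of variation 3.96%), and its coefficient of variation in the other 6 groups was 18.5% to 34.5%.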
